A study of Mus musculus with 4 samples.

Results

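The intestinal crypt houses the stem cells that renew the gut epithelium, and 8 genes known from those cells and their early progeny (Lgr5, Olfm4, Ascl2, Smoc2, Axin2, Sox9, Ephb2 and Cd44) were followed over 4 mouse arrays. A gene was measured by the probe set that named it alone and had the highest mean over the arrays. This gave values for 7 of the 8 members among 22180 genes in all. Ephb2 had no such probe set in the gene table used here and was not analysed here. The 4 arrays each held 1 group: IEL (intraepithelial lymphocytes, which lie between the epithelial cells) of the colon of recolonized mice, colon IEL of unmanipulated mice, small intestinal IEL of unmanipulated mice, and T cells of the colon lamina propria (titled LP). Recolonized mice had received vancomycin, ampicillin, neomycin and metronidazole in flavoured drinking water for 7 days and were then recolonized for 7 days, by cohousing or by littermates' used bedding, as the labels give both. All animals were C57Bl/6, aged 8 to 10 weeks, pooled as 10 mice (5 males and 5 females), and no group carried an engineered allele. T cells were enriched by magnetic negative selection with an added antibody to EpCAM, so epithelial cells were meant to be removed. There was 1 array a group, so no value below has a replicate error, no test was possible and no p-value is given.

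Crypt base stem cells depend on Wnt signalling. Wnt ligands and R-spondins from neighbouring cells stabilise beta-catenin, which joins TCF/LEF proteins on DNA to switch on target genes, and the signal weakens as cells leave the crypt. Lgr5 is a receptor for R-spondins, Ascl2 a transcription factor of the stem cell state under Wnt control, and Axin2 a target gene whose product feeds back to degrade beta-catenin. Sox9 is a transcription factor of stem cells, progenitors and Paneth cells, Smoc2 a secreted matrix protein, and Olfm4 a secreted glycoprotein best known from small intestinal stem cells. Cd44, a receptor for hyaluronan, is found on crypt cells but also on many T cells, and Ephb2 is a receptor that helps to position cells along the crypt.

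The upstream windows of Cd44 and Axin2 are shown because both genes are textbook Wnt targets. As deposited, Cd44 was 2.64-fold lower on the small intestinal IEL array than on the array labelled LP, and Axin2 differed by 1.60-fold at most over the 4 arrays. Each window is the 250 bases before the gene's start, 5′ to 3′ on the gene's strand, from RefSeq with build GRCm38.p6. That of Cd44 lies at chr2:102901666-102901915 on the minus strand and that of Axin2 at chr11:108920099-108920348 on the plus strand.
Cd44: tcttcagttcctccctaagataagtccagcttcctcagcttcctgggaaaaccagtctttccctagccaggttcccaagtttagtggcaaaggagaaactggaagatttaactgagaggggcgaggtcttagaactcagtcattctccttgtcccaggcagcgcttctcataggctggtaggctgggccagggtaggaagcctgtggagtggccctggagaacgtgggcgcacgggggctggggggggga
Axin2: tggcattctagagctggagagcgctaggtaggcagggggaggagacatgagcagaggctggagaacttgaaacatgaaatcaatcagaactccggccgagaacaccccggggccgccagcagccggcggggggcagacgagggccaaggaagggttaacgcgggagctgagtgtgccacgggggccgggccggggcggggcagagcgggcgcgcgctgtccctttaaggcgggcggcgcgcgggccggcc
The TCF/LEF core CTTTGA, searched on both strands, was in 0 of the 5 windows held for the members (Olfm4, Ascl2, Axin2, Ephb2 and Cd44), so no letters are in capitals. Over all genes it was in 13.8% of 32851 windows of this length, and its longer form CTTTGAT, which contains it, in 3.21%. Of the other 25 crypt base genes described below, 17 had windows, some several, and 3 of these 26 windows held the core. No window was held for Lgr5, Smoc2 and Sox9, and forms of the TCF/LEF site other than CTTTGA and CTTTGAT were not searched.

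The cell types named in the labels were checked with marker genes; the array of the lamina propria T cells is called by its title, LP. T cell genes had median log2 levels of 6.65 on the recolonized colon IEL array, 5.75 on colon IEL and 5.75 on small intestinal IEL, but 2.61 on the array labelled LP. The T cell receptor component Cd3e ranged from 9.17 to 9.49 over the 3 IEL arrays, against 3.72 on the array labelled LP. Pan-epithelial markers had medians of 4.39, 4.25, 5.27 and 7.69 in the same order of arrays. Epcam, the epithelial adhesion molecule, reached 9.20 on the array labelled LP, and Car1, a carbonic anhydrase of colonocytes, 11.53. The content of that array thus went against its label, so directions below that involve it are those of an array rich in colonic epithelial RNA. The small intestinal IEL array carried epithelial RNA as well, with Sis, a brush border enzyme, at 9.53 and Lyz1, the lysozyme of Paneth cells, at 9.86. B cell genes had a median of 6.24 there. Myeloid markers had medians between 1.96 and 2.96 over the 4 arrays, and endothelial markers between 1.70 and 2.40. Single markers differed from these medians. Myeloid Lyz2 was at 5.74, 6.40, 6.65 and 2.05 in the same order of arrays, and Itgax at 5.24 on small intestinal IEL. Cd14, also myeloid, went the other way, at 1.73, 1.66, 1.66 and 3.03. Endothelial Pecam1 was at 5.64, 5.39, 5.39 and 3.51. Stromal genes had medians of 5.16 on the recolonized and 5.67 on the unmanipulated colon IEL arrays, against 3.72 on small intestinal IEL and 2.93 on the array labelled LP. In RNA from such mixtures, fewer cells of a type and less RNA per cell cannot be told apart.

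By deposited log2 level, more members were highest on the array labelled LP than on any other. Percentiles within each array gave another order for some. Colon IEL lay above the array labelled LP for Smoc2 (73.4 against 64.5), Axin2 (90.9 against 77.2) and Cd44 (80.3 against 79.7). Small intestinal IEL lay above it for Olfm4 (55.7 against 51.4). Lgr5, Ascl2 and Sox9 kept their highest percentile on the array labelled LP. The number of members at or above the median level of all genes was 5 on recolonized colon IEL, 4 on colon IEL, 4 on small intestinal IEL and 7 on the array labelled LP. The last was the highest of the 4 arrays for 4 members (Lgr5, Ascl2, Sox9 and Cd44) and the lowest for none, while the small intestinal IEL array was the lowest for 4 (Ascl2, Smoc2, Axin2 and Cd44). Of all genes, 29.0% had their highest level on the array labelled LP. For Sox9 and Lgr5 the lead over the next array was 7.98-fold and 4.07-fold. For the other 5 members the first and second arrays in the order lay within 2-fold of each other, between 1.11-fold and 1.88-fold apart.

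Among the receptors, Lgr5 had log2 levels of 2.04 on recolonized colon IEL, 1.70 on colon IEL, 1.73 on small intestinal IEL and 4.07 on the array labelled LP. Only the last of these lay above the median level of its array (2.18); the other 3 lay at percentiles of 36.7, 18.3 and 30.6 of their arrays, in the same order. A further probe set that names Lgr5 alone, with a lower mean, did not show the pattern, at 2.19, 2.33, 1.72 and 1.74 in the same order of arrays. Cd44 was at 3.13 on recolonized colon IEL, 3.54 on colon IEL, 3.05 on small intestinal IEL and 4.45 on the array labelled LP. By deposited level, Cd44 was highest on the array where T cell genes were lowest. For colon IEL minus the array labelled LP, the difference of Cd44 was -0.91 as deposited. It was -0.15 under quantile normalization and 0.06 under the lowess correction.

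Of the transcription factors, Sox9 had the widest range of the members. It was at 3.04 on recolonized colon IEL, 2.24 on colon IEL, 2.62 on small intestinal IEL and 6.04 on the array labelled LP, 13.9-fold between the highest and the lowest. Ascl2 was at 2.39, 2.62, 1.97 and 2.85 on the same arrays in that order, and its highest and lowest values differed by 1.85-fold. These Ascl2 levels were all near the medians of their arrays.

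The secreted proteins and the feedback inhibitor followed other orders. Smoc2 had levels of 2.43 on recolonized colon IEL, 3.20 on colon IEL, 2.03 on small intestinal IEL and 3.05 on the array labelled LP. Its level on colon IEL was 1.11-fold above that on the array labelled LP. Axin2 was at 3.98, 4.37, 3.69 and 4.19 in the same order of arrays, within 1.60-fold throughout. Under quantile normalization and the lowess correction Axin2 passed 2-fold, with differences of 1.18 and 1.30 for colon IEL against the array labelled LP and of 1.45 and 1.35 for colon IEL against small intestinal IEL. As deposited, its second probe set was at 2.46, 2.51, 2.29 and 2.33. Olfm4 was at 2.07, 2.0, 2.47 and 2.24, also in that order, within 1.39-fold and near the array medians. Its level on the small intestinal array, 2.47, was the highest of its 4, in a sample where Paneth cell genes had a median of 9.20.

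**Figure D1:**
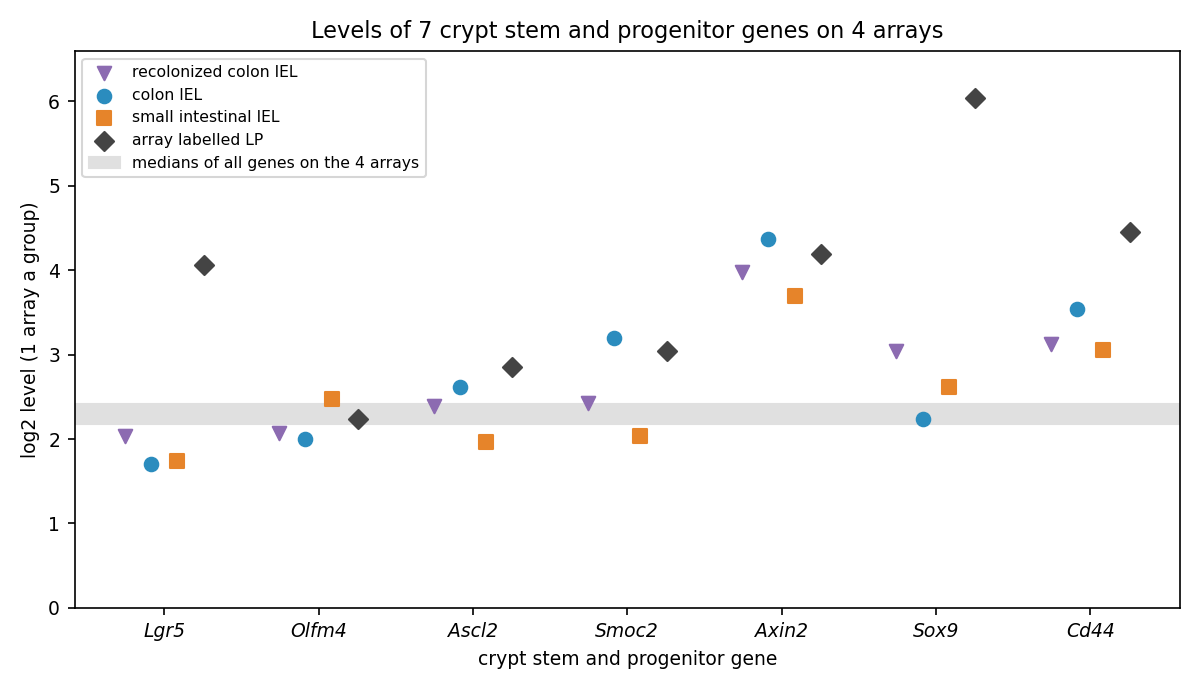
Log2 levels of the 7 measured crypt genes, 1 point per array, drawn from left to right as recolonized colon IEL, colon IEL, small intestinal IEL and the array labelled LP. The grey band spans the medians of all genes on the 4 arrays; Sox9 at 6.04 and Lgr5 at 4.07 on the array labelled LP stand apart from their other 3 points, while Olfm4 and Axin2 stay close together.

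Differences between pairs of arrays were counted when a gene's level on the brighter array was at or above the median of all genes on that array, and when the difference reached 2-fold. The 4 comparisons share arrays, so their values are not independent. The first pair sets the 2 arrays with the most epithelial RNA side by side, across gut regions. On the small intestinal IEL array, 4 of the 7 measured members were at least 2-fold lower than on the array labelled LP, and 0 were higher. The background of all genes above the level floor was 15.7% lower and 8.76% higher. Sox9 was 10.7-fold lower (-3.42 on the log2 scale), Lgr5 5.04-fold lower (-2.33), Cd44 2.64-fold lower (-1.40) and Smoc2 2.02-fold lower (-1.01). Smoc2 fell short of 2-fold under quantile normalization (-0.89), median centring (-0.84) and the lowess correction (-0.99), and below the floor set at the 75th percentile, each of which left 3 members lower. Only 1.10% of genes above the floor had a more negative difference than Sox9, and 3.30% a more negative one than Lgr5. Ascl2 differed by -0.89, Axin2 by -0.50 and Olfm4 by 0.23, all short of 2-fold. With the mean of both probe sets, the difference of Lgr5 was -1.18 in place of -2.33.

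These differences stood beside unlike ones of the epithelial markers. The median difference of the 7 members was -1.01, against -0.17 for all genes above the floor. Pan-epithelial markers had a median of -2.01, with 14 of 15 lower, colonocyte markers -4.24 and goblet cell markers -2.06. Small intestinal enterocyte markers had a median difference of 3.20 and Paneth cell markers 6.39, with 7 of the 8 measured Paneth genes higher. The arrays come from different gut regions, so this is no comparison of stem cells and Paneth cells within a crypt base. Relative to that pan-epithelial median, a shift of the same size for every gene, Sox9 was at -1.41 and Lgr5 at -0.32. Cd44 was at 0.61, Smoc2 at 1.00, Ascl2 at 1.13, Axin2 at 1.51 and Olfm4 at 2.24. Sox9 was thus further down than the median epithelial marker. Lgr5 was so only slightly, and with the mean of probe sets it lay above that median, at -1.18 against -1.90. The other members lay above it. The part of epithelial content in these differences was not tested.

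**Figure D2:**
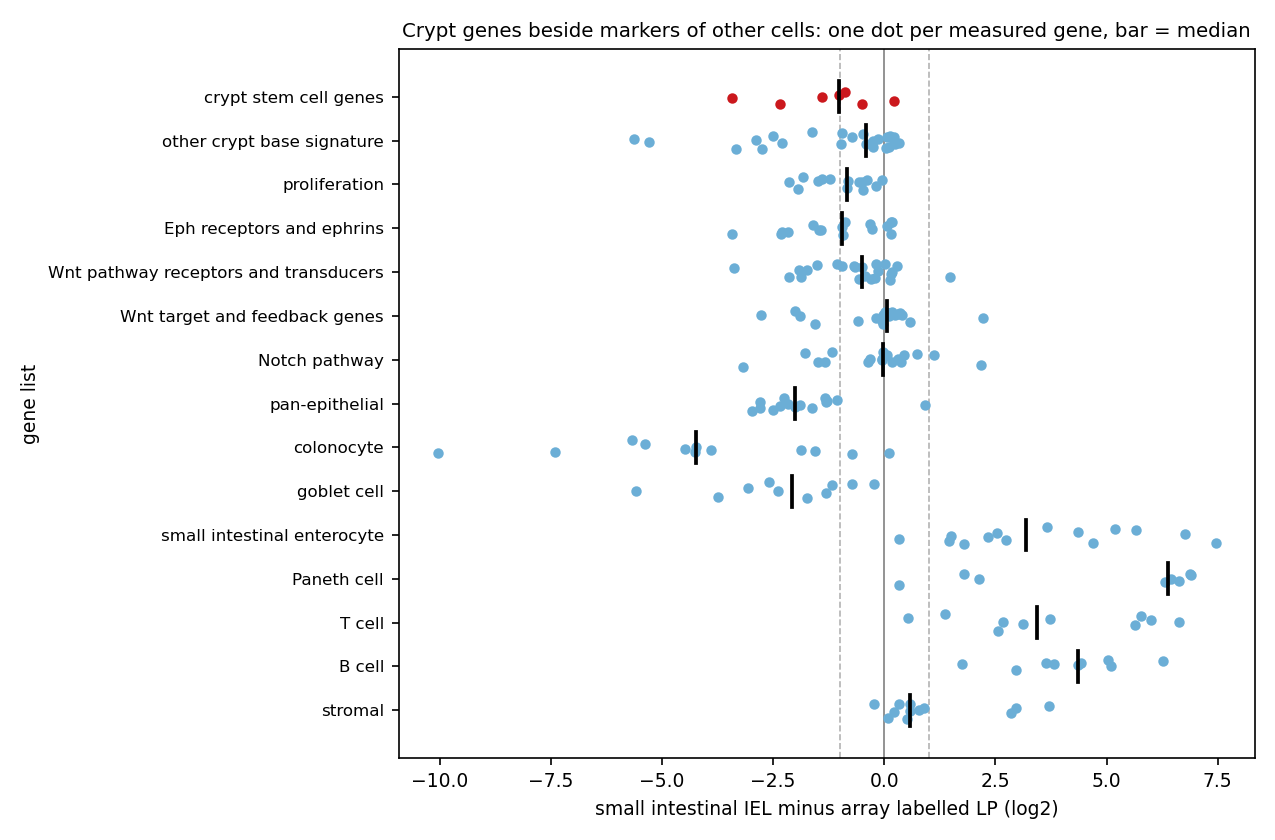
Difference in log2 level, small intestinal IEL minus the array labelled LP, for each measured gene (dots, jittered vertically) of the crypt stem cell genes (red) and of other lists (blue), with black bars at the list medians and dashed lines at 2-fold. The crypt stem cell genes have a median of -1.01, between the pan-epithelial markers at -2.01 and all genes above the floor at -0.17, whereas Paneth cell markers have a median of 6.39.

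The next comparison was designed to tell lymphocytes in the colon epithelium from those beneath it, which the content of the array labelled LP limits. On colon IEL, 2 of the 7 measured members were lower by 2-fold or more, Sox9 at 2.24 against 6.04 and Lgr5 at 1.70 against 4.07, and 0 were higher. The background of genes above the floor was 34.7% lower and 10.5% higher, so the share of members that were lower was close to that of all genes. The differences were -3.80 for Sox9, -2.37 for Lgr5 and -0.91 for Cd44. The other 4 members lay between -0.24 and 0.18, with Axin2 and Smoc2 on the positive side; median centring put Olfm4 and Ascl2 there as well, each at 0.20, and the lowess correction put Cd44 at 0.06. Pan-epithelial markers differed by a median of -3.71 and stromal markers by 2.94 in the same comparison; their part in the members' values was not tested. Recolonized colon IEL, set against the array labelled LP in the same way, differed by -2.997 for Sox9, -2.03 for Lgr5 and -1.32 for Cd44. With both probe sets of Lgr5 averaged, its difference was -0.89, short of 2-fold.

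The comparison of colon with small intestinal IEL addresses regional differences along the gut. Here 1 of the 7 measured members, Smoc2, was at least 2-fold higher on the colon IEL array, at 3.20 against 2.03 (a difference of 1.17), and 0 were lower. The background was 5.98% higher and 24.4% lower. Axin2 differed by 0.68, Ascl2 by 0.65 and Cd44 by 0.49, while Sox9 differed by -0.38 and Olfm4 by -0.47. Lgr5, at 1.70 against 1.73, was below the level floor on both arrays. Colon IEL had stromal markers higher by a median of 1.89, with Col1a1, the main fibrillar collagen chain, at 7.59 against 4.18, and 7 of 12 stromal genes at least 2-fold higher. Smoc1, the close relative of Smoc2, was at 2.90 against 2.04. Against the same small intestinal array, the recolonized colon IEL array gave Smoc2 a difference of 0.40, and its stromal median was 5.16. That median hides stromal genes that went both ways from unmanipulated to recolonized colon IEL. Of 12, 4 were at least 2-fold lower and 3 higher on the recolonized array, beside 3.06% and 6.04% of all genes. Col1a1 was at 6.31 there against 7.59, and the stromal gene Dcn at 9.03 against 7.96. Whether stromal RNA bears on Smoc2 was not tested.

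Recolonized colon IEL were set against unmanipulated colon IEL to ask what antibiotics followed by the return of bacteria leave behind. No measured member reached 2-fold in either direction; the background was 6.04% higher and 3.06% lower. Sox9 had the most positive difference, at 3.04 against 2.24 (0.80), and Smoc2 the most negative, at 2.43 against 3.20 (-0.77). Over 57 ribosomal protein genes the median difference was 0.43 and the SD 0.58. That SD describes the spread of differences within this pair of arrays and is no replicate error. Sox9 lay less than that SD from the ribosomal median, and Smoc2 more. Cd44 differed by -0.41, Axin2 by -0.39 and Ascl2 by -0.22. Lgr5 (0.34) and Olfm4 (0.07) were below the floor on both arrays. Pan-epithelial markers were higher on the recolonized array by a median of 0.70, colonocyte markers by 2.04 and goblet cell markers by 2.07; their part in the value of Sox9 was not tested.

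**Figure D3:**
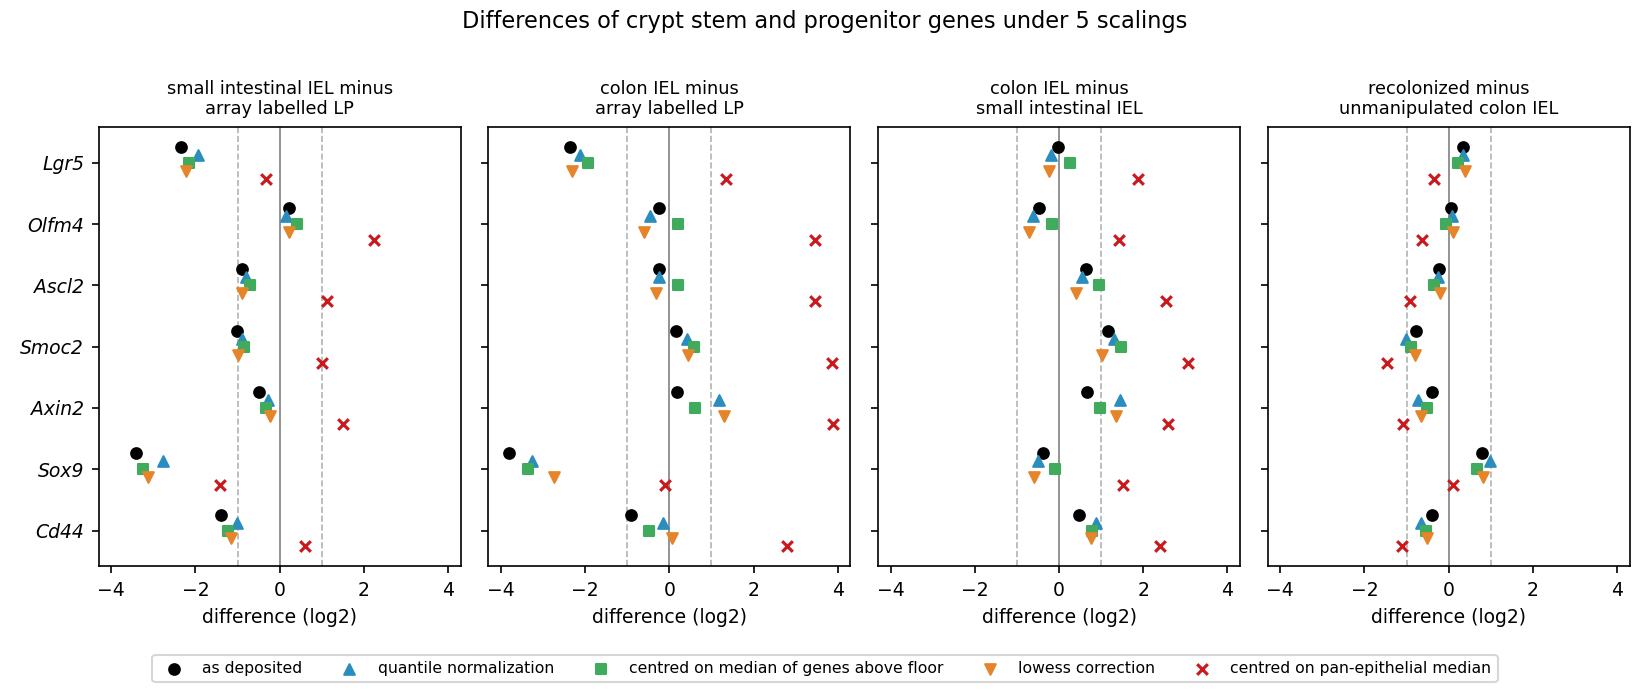
Differences in log2 level of the 7 measured crypt genes in the 4 comparisons (panels), with the deposited values (black circles) and 4 other scalings. Dashed lines mark 2-fold; in the left panel Sox9 lies between -3.42 and -1.41 under every scaling shown, and centring on the pan-epithelial median (red crosses) moves the points by 2.01 in that panel and by 3.71 in the second.

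Related genes were taken from fixed lists. The counts below stand against the shares over all genes above the floor given with each comparison, 15.7% lower and 8.76% higher in that of small intestinal IEL with the array labelled LP. Among 25 other genes of the crypt base, all measured and 20 of them above the floor, 8 were lower by 2-fold or more and 0 higher on the small intestinal IEL array than on the array labelled LP. Those with the largest differences were Prom1, the surface protein CD133, at 2.44 against 8.08, Slc12a2, a sodium, potassium and chloride cotransporter, at 3.01 against 8.29, and the water channel Aqp4 at 1.57 against 4.90. The other 5, named after their values were seen, were Rgmb, Myb, Sox4, Cdca7 and Phlda1, with differences between -2.88 and -1.63. The list's median difference was -0.42 over all 25 genes and -0.83 over the 20 above the floor. On the colon IEL array 9 were lower than on the array labelled LP, of 21 above the floor, where 34.7% of all genes were lower. The 1 higher gene, Zfp503, singled out after its value was seen, was at 3.66 against 2.53. Colon and small intestinal IEL differed by 2-fold in 1 of the 25, again Zfp503, and recolonized and unmanipulated colon IEL in 1, Cd24a (likewise), at 5.22 against 7.87.

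Further crypt base genes followed several orders. Lrig1, an inhibitor of growth factor receptors, was at 3.36 on recolonized colon IEL, 3.63 on colon IEL, 3.69 on small intestinal IEL and 4.63 on the array labelled LP. Hopx, a homeodomain protein without DNA binding, ranged over the 4 arrays from 2.55 to 3.17, Msi1, an RNA-binding protein, from 2.29 to 2.62, and Tnfrsf19, the receptor TROY, from 2.05 to 2.40. Bmi1, a Polycomb protein, was highest on the recolonized array (2.80) and lowest on the small intestinal one (1.27). Rnf43 and Znrf3, the ubiquitin ligases that remove Wnt receptors from the cell surface, ranged from 3.67 to 4.40 and from 3.49 to 4.0.

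Of 23 Wnt receptors and transducers, 21 of them above the floor, 7 were lower by 2-fold or more and 1 higher on the small intestinal IEL array than on the array labelled LP. Lgr4, the relative of Lgr5 that also binds R-spondins, was at 2.44 on recolonized colon IEL, 2.68 on colon IEL, 4.04 on small intestinal IEL and 7.42 on the array labelled LP. The difference between the last pair was -3.38, followed by the TCF factor Tcf7l2 with -2.15 and the Wnt receptor Fzd5 with -1.92. The 1 higher gene was Lef1, a TCF/LEF factor that T cells also use, named after its value was seen: it was at 7.55, 7.14, 3.85 and 2.37 in the same order of arrays, the reverse of Lgr4. Of 20 Wnt target and feedback genes, 11 of them above the floor, 4 were lower and 1 higher, with 15.7% and 8.76% as the shares over all genes, led by the potassium channel gene Kcnq1 with -2.77, Id2 with 2.22 and Ets2 with -2.01. Nkd1, a feedback inhibitor, was at 1.97 against 1.95, and Myc at 3.81 against 4.40. The median difference of this list was 0.06.

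Ephb2 itself was not analysed here, but its family was. Of 16 Eph receptors and ephrins, 11 were above the floor in small intestinal IEL against the array labelled LP. On the small intestinal IEL array, 7 of the 16 were lower by 2-fold or more and 0 higher. The median difference was -0.94 over all 16 and -1.46 over the 11 above the floor. Ephb3, the receptor that acts beside Ephb2 in the crypt, was at 2.65 on recolonized colon IEL, 2.61 on colon IEL, 2.19 on small intestinal IEL and 3.80 on the array labelled LP. The B-type ligands Efnb2 and Efnb1, which in the gut lie more towards the villus or surface, were at 3.97 against 7.38 and at 4.32 against 6.65 on the small intestinal array and the array labelled LP, whereas the ligand Efnb3 was at 2.17 against 2.50. Ephb4, another B-type receptor, was at 2.80 against 5.10. The colon IEL array was lower for 8 of the 16 than the array labelled LP, with 11 above the floor. It was higher for 1, Efnb3, chosen after its value was seen, at 3.57 against 2.50. Of all genes, 34.7% were lower and 10.5% higher in that comparison. Of 14 measured relatives of the members by family, 6 of them above the floor, 3 were lower on the small intestinal array than on the array labelled LP and 0 higher; the 3 were Lgr4, Ephb3 and Ephb4.

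**Figure D4:**
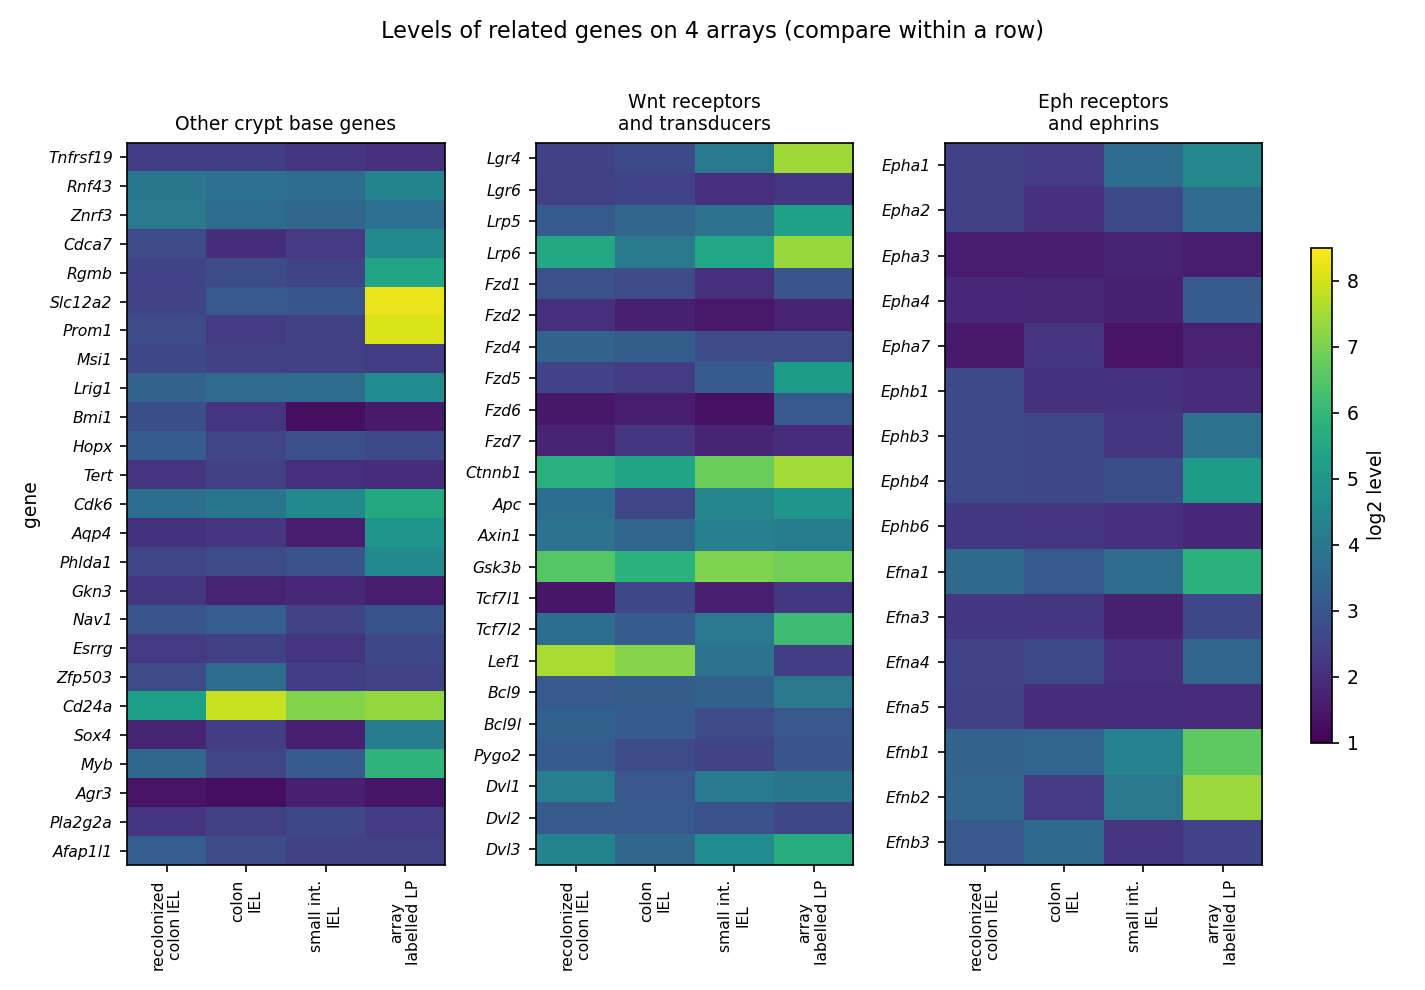
Log2 levels (colour) of other crypt base genes, Wnt receptors and transducers, and Eph receptors and ephrins on the 4 arrays (columns). Colours are to be compared within a row; Prom1, Slc12a2, Lgr4, Efnb1 and Efnb2 are brightest on the array labelled LP, whereas Lef1 is brightest on both colon IEL arrays.

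Notch signalling, which steers crypt cells between absorptive and secretory lines, had 18 measured genes, 17 of them above the floor. The small intestinal IEL array had 5 lower and 2 higher by 2-fold or more than the array labelled LP, beside 15.7% and 8.76% of all genes, and the median difference was -0.03. Atoh1, the factor of secretory cells, was at 3.40 against 6.59, Hes1, a Notch target, at 3.29 against 4.78, and the ligand Jag1 at 1.71 against 3.49. The receptor Notch2 was at 5.17 against 2.997, and Notch1 at 4.11 against 4.16. Proliferation genes, which mark dividing cells of crypts and of lymphocytes alike, had 6 of 14 lower and 0 higher, with Mki67 at 4.41 against 6.56, Ccnb2 at 4.44 against 6.39 and Top2a at 3.80 against 5.63. Niche ligands were mostly below the floor in that pair of arrays: 6 of 21 passed it. Of the 21, 1, the growth factor gene Ereg, was lower, at 2.44 against 3.89. More passed in the other pairs. Colon IEL with the array labelled LP had 10 above the floor, with 2 higher and 2 lower. Colon with small intestinal IEL had 11, with 3 higher and 0 lower. The pair of colon IEL arrays had 14, with 1 higher on the recolonized array and 0 lower. The R-spondin genes are given for recolonized colon IEL, colon IEL, small intestinal IEL and the array labelled LP. Rspo3 was at 1.60, 1.71, 1.62 and 1.59 in that order. Rspo1 was at 4.09, 4.08, 2.78 and 2.61, and Rspo2 at 2.47, 2.08, 1.77 and 1.78, both named after their values were seen. Rspo1 was thus at least 2-fold higher on colon IEL than on small intestinal IEL (1.30) and the array labelled LP (1.47).

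The genes with profiles most like the members' were found by the Euclidean distance between log2 levels centred on each gene's mean over the 4 arrays, among 12585 genes at or above the floor on at least 1 array, after leaving out predicted genes, Rik, microRNA and small nucleolar RNA genes, olfactory and vomeronasal receptors, and antigen receptor segments. Nearest to Sox9 were Clybl (distance 0.15), Lrrc42 (0.22) and Fermt1 (0.22), where the distance of Sox9 itself from a flat profile was 3.003. Nearest to Lgr5 were Cbr3, Dpagt1 and Gorasp1, each at 0.10 to 0.11 with 1.96 from flat, and nearest to Cd44 were Wnk4, Vsig1 and B3galnt2, at 0.04 to 0.11. Clybl was at 3.38 on recolonized colon IEL, 2.53 on colon IEL, 2.77 on small intestinal IEL and 6.35 on the array labelled LP, the order of Sox9. None of these genes was on the fixed lists. Nearest to Smoc2, at 0.94 from flat, were Adhfe1, Cntnap1 and Rab32, at 0.14 to 0.15. Olfm4, Axin2 and Ascl2 lay only 0.37, 0.50 and 0.65 from flat, so that likeness to them means little. Nearest to Olfm4 were Entr1, Ago3 and Trappc12, to Axin2 Arhgef37, Serac1 and Nrde2, and to Ascl2 Pigyl, Tmc7 and Fbxo34, all at 0.03 to 0.08.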

How the data were processed

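RNA was measured on 4 Affymetrix arrays, 1 per group. The authors deposited log2 levels of 41345 probe sets. Per the submitters' processing notes they used Affymetrix Expression Console; version, summarization, normalization and genome build were not given in the sources used here. The unit was read from the range of the values. Of the probe sets, 23521 carried 1 gene symbol in the platform's gene table, 1814 carried several and name no gene here, and 16010 were not in that table. Symbols were matched by gene ID to RefSeq (GRCm38.p6); 23328 matched. Of the members, 2 had 2 probe sets.

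Differences of log2 levels were computed for the same gene between arrays in Python 3.11.15 with pandas 2.3.3. A gene was counted if it reached the 50th percentile of gene levels on the brighter array of a pair, and called at 2-fold. The computation was tested on simulated data. The alternatives were floors at the 25th and 75th percentile or none, thresholds of 1.5-fold and 3-fold, averaging over probe sets, centring on the pan-epithelial markers or on the median gene above the floor, quantile normalization, a lowess correction (statsmodels 0.14.6, span 0.3), and the recolonized array in place of unmanipulated colon IEL. The members, the gene lists and these choices were made with earlier results of these data known. Genes named are the members, the 3 genes of each other list with the largest difference between small intestinal IEL and the array labelled LP, some named in any case (such as Epcam, Cd3e, Lgr4, Ephb3, Hes1 and Myc), and the 3 genes nearest in profile to each member. Further genes, such as Rgmb, Zfp503, Lef1 and Rspo1, fall outside this rule and are marked above as named after their values were seen. The number of arrays limits the precision.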

Additional observations from a re-analysis of the deposited data

How the results depend on the processing

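An alternative was held to move a difference when it did so by more than the SD over ribosomal protein genes in that comparison, and a count when by more than 1.5 times. Centring on the pan-epithelial markers had the most effect by its construction, since it subtracts their own difference. It turned the median of the crypt genes to 1.00 for small intestinal IEL against the array labelled LP (3 higher, 1 lower) and moved it to 3.46 for colon IEL against that array (6 higher, 0 lower), to 2.39 for colon against small intestinal IEL (6 higher) and to -0.92 for recolonized against unmanipulated colon IEL (3 lower). Of the members that had reached 2-fold, it turned Smoc2 (1.00) and Cd44 (0.61) in the first comparison and Lgr5 (1.34) in the second. Of those short of 2-fold, it turned Ascl2 (1.13) and Axin2 (1.51) in the first, Olfm4 (3.46), Ascl2 (3.47) and Cd44 (2.79) in the second, Lgr5 (1.87), Olfm4 (1.43) and Sox9 (1.52) in the third and Lgr5 (-0.35) and Olfm4 (-0.63) in the fourth. For small intestinal IEL against the array labelled LP, 2 members were lower at 3-fold. For colon IEL against that array, 1 was lower with the mean of probe sets, and 1, Axin2, was higher under quantile normalization and likewise under the lowess correction. For colon against small intestinal IEL, the 1 higher member became 3 at 1.5-fold, 2 under quantile normalization, 2 under the lowess correction, and 0 with the floor at the 75th percentile, at 3-fold or with the recolonized array. For recolonized against unmanipulated colon IEL, 1 was higher and 1 lower at 1.5-fold, and 1 lower under quantile normalization. The causes of these other moves were not tested. The other 103 recomputed medians and counts of the members kept within these limits.

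Among all genes, higher calls made up 35.8% of calls in the first comparison, against 45.1% with quantile normalization, 46.3% with median centring and 47.5% with lowess. In the second the shares were 23.2%, 42.6%, 47.6% and 44.2% in that order, in the third 19.7%, 45.3%, 42.1% and 39.7%, and in the fourth 66.3%, 51.6%, 48.2% and 46.6%. Apart from the pan-epithelial centring, higher calls ranged over the alternatives from 656 to 1792 (1065 as reported), 493 to 2847 (1344), 163 to 2024 (751) and 146 to 2402 (751) in these comparisons. Lower calls ranged from 895 to 3468 (1910), 2356 to 5859 (4437), 1569 to 4785 (3059) and 109 to 1298 (381). With that centring, higher calls were 10286, 11781, 9123 and 124, and lower calls 191, 133, 369 and 2714. The pseudocount alternative was not run, the values being log2 already. With 1 array per group, levels near or below the array medians of 2.18 to 2.41 limit what Lgr5, Olfm4 and Ascl2 can show. The same limit holds for Smoc2 on small intestinal IEL (2.03) and recolonized colon IEL (2.43), and for Sox9 on colon IEL (2.24).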
